A study of Fukomys damarensis and Heterocephalus glaber and Mus musculus with 160 samples.

Results

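The apolipoprotein cluster of the mouse holds 4 genes in the order Apoa1 (ENSMUSG00000032083.8), Apoc3 (ENSMUSG00000032081.10), Apoa4 (ENSMUSG00000032080.6) and Apoa5 (ENSMUSG00000032079.12). It was taken as chr9:46220001-46280000 of GRCm38, a window of 60 kb with Apoa1 towards the low coordinates and Apoa5 towards the high ones. Every peak of a mouse liver or heart histone library that overlapped this window was a member. There were 224 such peaks, 157 from liver and 67 from heart, among 1711588 peaks in 29 mouse libraries, and the whole series has 160 samples. The study measured 3 histone modifications by ChIP-seq, in which an antibody recovers modified chromatin and peaks mark where its reads exceed those of untreated chromatin (the input). It set mole-rats, the guinea pig and the mouse side by side.

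All mice were wild-type C57BL/6J adult males aged 2 months, with no treatment named. The 12 liver libraries came from 4 animals (85920, 85921, 85923 and 85924), each with all 3 marks. The 17 heart libraries came from 12 sources, none of them an animal that gave a liver, and 1 source was a pool of 3 animals. H3K4me3 had 6 heart libraries, H3K27ac 6 and H3K4me1 5. Whole pieces of organ were used, so fewer cells carrying a mark and less of it per cell cannot be told apart.

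Apolipoproteins are the protein part of the particles that carry lipids in blood, and the liver makes most of these particles. Apoa1 encodes the main protein of high-density lipoprotein and activates the enzyme that esterifies cholesterol there. Apoc3 encodes an inhibitor of lipoprotein lipase, the enzyme that releases fatty acids from circulating triglyceride. Apoa4 encodes a protein carried on chylomicrons and is best known from the intestine, whereas Apoa5, made in liver, promotes the breakdown of triglyceride. The heart takes up much of its fatty acid from triglyceride-rich lipoproteins. H3K4me3 is found at active promoters, H3K27ac at active promoters and enhancers, and H3K4me1 mostly at enhancers and on the flanks of promoters.

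No gene positions of the mouse were used here, so peaks are placed by coordinate and not assigned to a gene. In the RefSeq table of the Damaraland mole-rat, a relative in the same series, the protein-coding gene next to Apoa5 outside the cluster is Zpr1 and the one next to Apoa1 is Sik3. The peaks at either end of the window may therefore lie near genes other than the 4 apolipoproteins, which was not tested.

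Lists held 17431 to 19301 peaks for H3K4me3 in liver and 18135 to 32785 in heart. For H3K27ac they held 56871 to 63479 and 57663 to 109724, and for H3K4me1 86486 to 113889 and 20521 to 129914, the heart pool being the shortest. The read depth of the libraries is unknown. No pair of lists of a mark was identical, since the highest Jaccard index of covered bases over 126 pairs was 0.83. Whether libraries share material was not tested. The tissue labels of the H3K4me3 and H3K4me1 libraries were checked on H3K27ac regions found in at least 2 libraries of one tissue and in none of the other. These regions were drawn from the H3K27ac lists by label, so the labels of the H3K27ac libraries were not checked. Of 26861 liver-only regions, the liver H3K4me1 libraries met 54.2 to 71.2% and the heart H3K4me1 libraries 1.46 to 16.9%. Of 57857 heart-only regions, the liver libraries of that mark met 9.96 to 21.6% and the hearts other than the pool 32.4 to 60%. The pool, with its short list, met 7.44% of them, below every liver, so on that side its list did not set it apart as heart.

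One library stood apart. The H3K4me3 library labelled heart 6837 met 18.3% of the liver-only regions, against 0.227 to 1.75% in the other 5 heart H3K4me3 libraries and 4.39 to 6.28% in the 4 liver H3K4me3 libraries. It met 5.39% of the heart-only regions, within the 3.98 to 12.2% of the other hearts and above the 2.90 to 3.33% of the livers. The H3K27ac library of the same animal covered 1944 bases of the cluster, within the 1238 to 2145 of the other hearts. H3K4me3 comparisons of the tissues are given with and without the library labelled heart 6837, and the reason for its pattern was not tested.

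**Figure D1:**
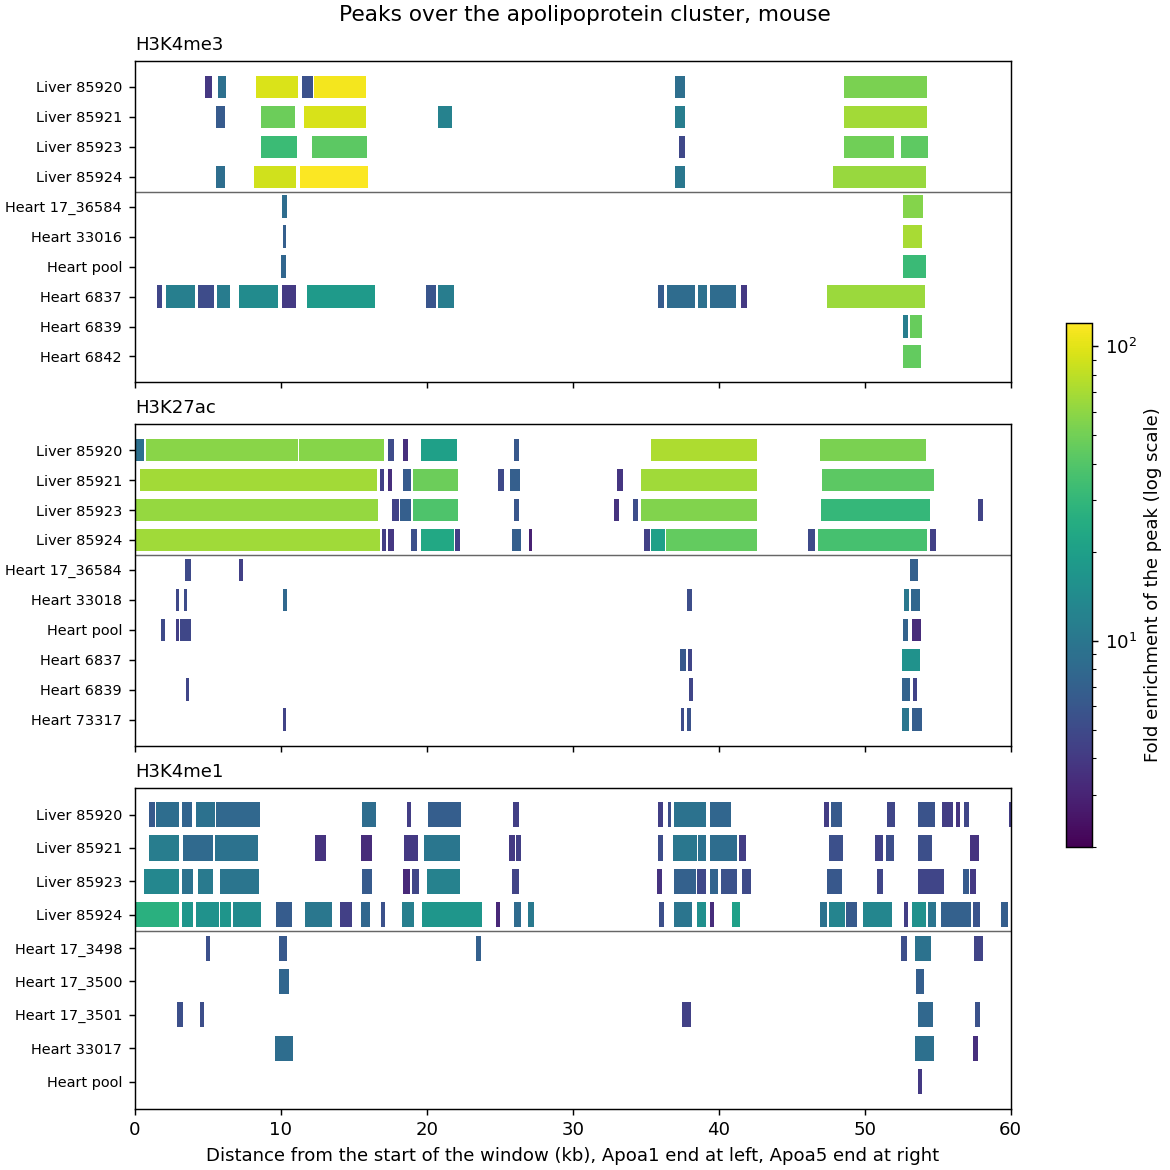
Peaks of each library along the window, with distance from the window's start in kb on the horizontal axis, 1 row per library, and colour for the peak's fold enrichment over input on a log scale. The 4 livers carry broad peaks over most of the window in H3K27ac, whereas hearts carry short peaks, of which those at the Apoa5 end recur in every heart library; the H3K4me3 library labelled heart 6837 has 15 peaks where the other hearts have 1 or 2.

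H3K27ac covered most of the cluster in liver and very little of it in heart. In liver 85920, 85921, 85923 and 85924 the bases of the window inside a peak numbered 34875, 37683, 37791 and 37104, or 58.1 to 63.0% of it. In the 6 hearts they ranged from 1238 to 2145 with a median of 1923, or 2.06 to 3.58%. The tissues did not overlap, and the spread among the livers was small beside the gap to the hearts. The mean was 36863 ± 1359 bases in liver (SD, n = 4) and 1762 ± 415 in heart (SD, n = 6), a difference of 35101 bases.

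This difference passed the test made on every 60-kb window of the genome with a peak (two-sided exact permutation over libraries, p = 0.00952, the smallest that 4 against 6 allow; Benjamini-Hochberg adjusted p = 0.0231). Of 22013 windows, 4800 were called higher in liver, which is 21.8%, and every liver exceeded every heart in 4474, which is 20.3%. Being called is thus common among windows, and the cluster is better described by its size. Its liver mean ranked 18th of 22013 windows and its difference 7th, while its heart mean ranked 9160th, in the upper 41.6%. For every mark the windows were laid end to end so that the cluster window is among them. Other loci are cut wherever this grid falls, so the ranks may favour the cluster. The median window had a mean of 961 covered bases in liver and 1259 in heart. Leaving out any 1 of the 4 livers moved the adjusted exact permutation p to between 0.0547 and 0.0557, as 3 livers allow no p below 0.0238, with differences of 34792 to 35764 bases.

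**Figure D2:**
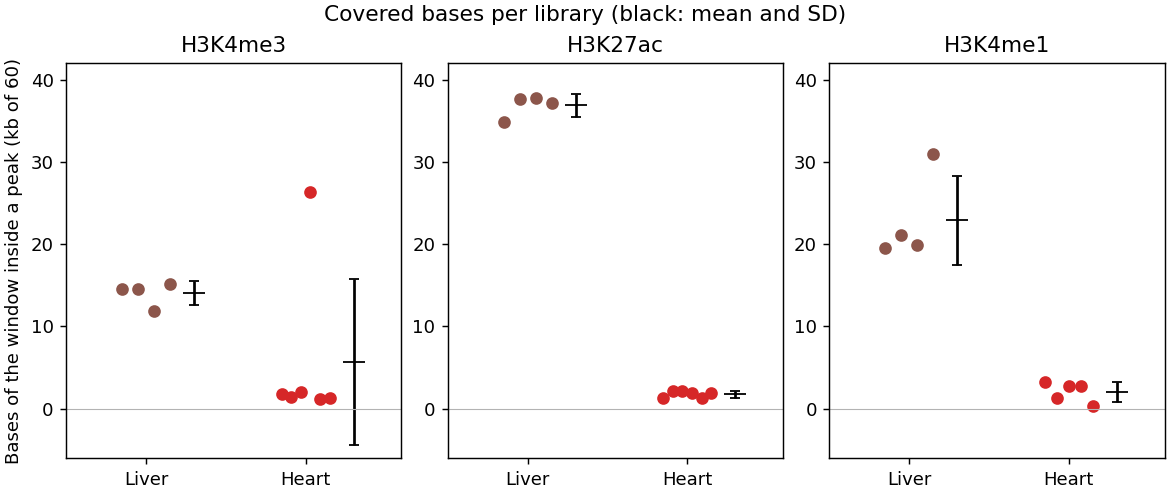
Bases of the 60-kb window inside a peak, in kb, for each library of each mark, with the mean and SD of each tissue in black beside the points. Livers exceed hearts without overlap in H3K27ac and H3K4me1, and in H3K4me3 the library labelled heart 6837 lies above all 4 livers and draws the SD of the hearts below 0.

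The liver H3K27ac formed 4 main domains separated by unmarked or thinly marked stretches. The first ran over chr9:46220001-46236764 at the Apoa1 end and was covered in all 4 livers over 16035 of its 16764 bases. In liver 85921 and 85924 it was 1 peak of 16259 and 16763 bases, and in liver 85920 a peak of 10405 bases followed by one of 5796. In liver 85923 the peak began before the window, at chr9:46213199, and spanned 23466 bases, the 5th widest of the 59902 peaks of that list. In that liver the domain thus extended beyond the window, and the summit of its peak, at chr9:46216223, lay outside it. The top folds over input were 57.9, 67.5 and 66.6 in livers 85920, 85921 and 85924, with summits inside the window, and 62.4 in liver 85923, a fold of the whole peak whose summit is outside. Of the 6 hearts, 5 had short peaks in it, covering at most 1196 bases and with folds of 4.25 to 7.81 in the regions that at least 2 hearts shared.

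The second domain, chr9:46239041-46242172, had peaks in all 4 livers with folds of 20.3, 47.9, 38.3 and 23.4 and in 0 of 6 hearts. The third, chr9:46254691-46262634, lay past the middle of the window. Its top liver folds were 72.8, 66.9, 55.0 and 44.6, and in liver 85920 its peak of 7255 bases had the highest fold of the cluster's H3K27ac peaks, ranking 135th of 63479 peaks in that list. Of the 6 hearts, 4 had short peaks in the third domain, covering 222 to 684 bases with top folds of 4.69 to 6.10. Of the 4 liver domains, the second was the one with no H3K27ac peak in any heart.

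The last domain, chr9:46266961-46274753, lay at the Apoa5 end and was the one to which all 6 hearts contributed. The livers covered it with a peak of 7235, 7710, 7494 and 7495 bases in order and folds of 52.5, 42.7, 30.3 and 35.8. All 4 liver summits fell at chr9:46269076 to chr9:46269166. The heart peaks covered 562 to 1260 bases, all near chr9:46272533-46273903, with top folds of 6.93 to 16.2. The heart peaks sat on one flank of the liver domain and away from its summits. The highest fold and the widest peak among the hearts were those of 6837 (16.2 and 1260 bases).

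The strongest H3K27ac peak with its summit inside the window was among the top 0.213, 0.253, 1.14 and 0.269% of its list by fold in the 4 livers in order. For liver 85923 this was the peak of the third domain, with fold 55.0. In hearts the strongest such peak stood between the top 3.08% (6837) and the top 39.5% (6839). Folds from different lists were not tested between tissues, because the depth of chromatin and of input behind them is unknown. Where folds of different lists are given side by side or called highest or lowest, this only describes the deposited values. Top folds also entered the screen for libraries that stand apart within a tissue and mark. The same limit holds for both.

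**Figure D3:**
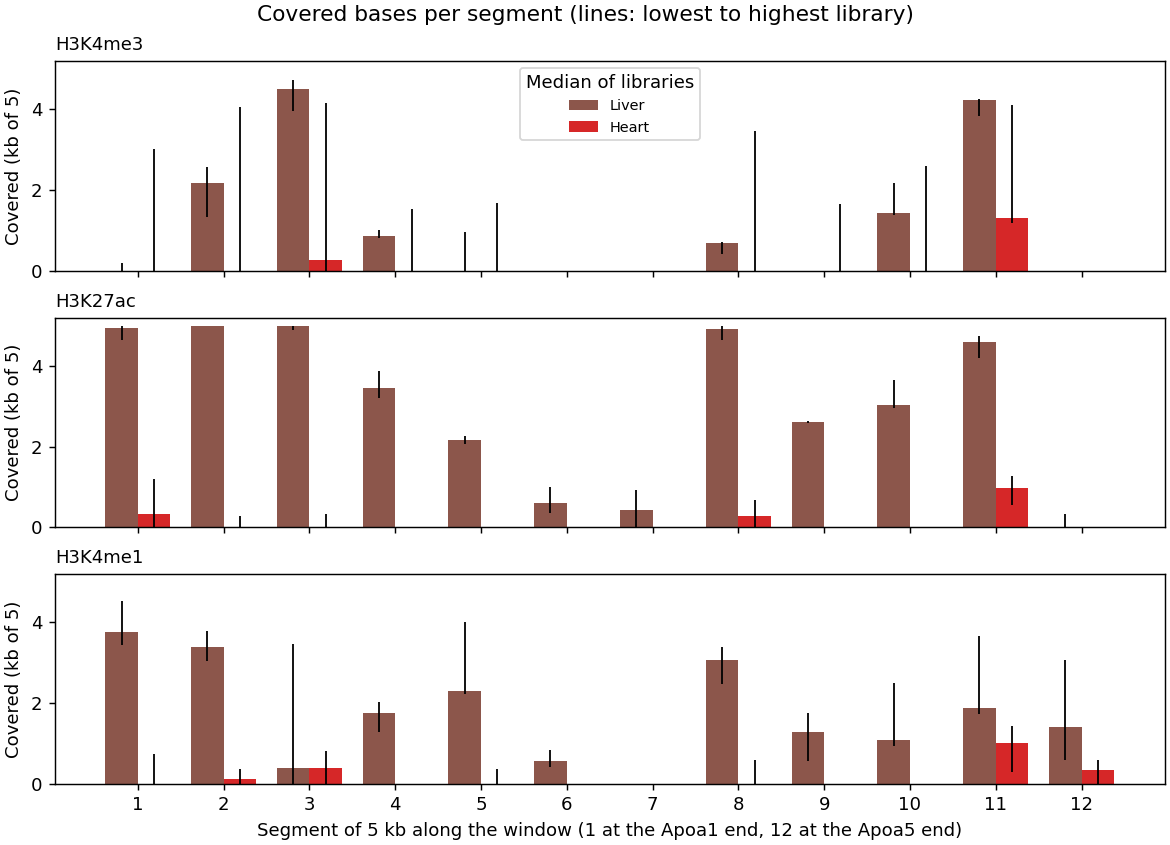
Covered bases in each of 12 segments of 5 kb along the window, as the median of the libraries of a tissue (bars) with the lowest and highest library (lines). The liver H3K27ac bars are near 5 kb in segments 1 to 3 and 8, low in 6, 7 and 12, and the heart bars are tallest in segment 11 for all 3 marks.

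H3K4me3 peaks shared by at least 2 livers formed 3 strong blocks and 2 weak ones, and hearts other than 6837 had a strong peak in 1 of them. The first strong block, chr9:46228283-46231107, had liver folds of 95.4, 47.6, 32.4 and 88.6. The second, chr9:46231486-46235906, had top folds of 111, 93.4, 43.0 and 116, and its summits fell at chr9:46234538 to chr9:46234602 in the 4 livers. These blocks lie side by side in the low-coordinate part of the window, inside the first H3K27ac domain. The third, chr9:46268557-46274260 at the Apoa5 end, had top folds of 52.8, 68.1, 49.2 and 64.0. All 3 strong blocks were present in 4 of 4 livers.

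Liver 85923 had the lowest fold of the 4 in each of the 3 strong blocks. A weak block at chr9:46257002-46257696, inside the third H3K27ac domain, had folds of 8.82, 11.2, 4.90 and 10.1 in the 4 livers. Another at chr9:46225561-46226147 had folds of 8.98, 6.34 and 8.69 in livers 85920, 85921 and 85924 and was not called in liver 85923. Among livers, the second H3K27ac domain carried an H3K4me3 peak in 85921 alone (chr9:46240744-46241706, fold 12). The library labelled heart 6837 also had H3K4me3 peaks there, at chr9:46239962-46240603 (fold 5.86) and chr9:46240749-46241835 (fold 11.1).

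Among hearts other than 6837, the second strong block had no peak in 5 of 5, and the first had short peaks in 3 of 5 (17_36584, 33016 and the pool). Those 3 peaks were 373, 201 and 345 bases wide with folds of 8.57, 6.75 and 7.59, and they sat at chr9:46230047-46230453, towards the high-coordinate edge of the liver block. The library labelled heart 6837 had peaks in all 5 liver blocks, with a fold of 14.1 in the first strong block and 18.2 in the second. Its summits there, chr9:46229326 and chr9:46234632, lay within the liver blocks and close to the liver summits.

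The block at the Apoa5 end was marked in all 10 H3K4me3 libraries, but over different lengths. In liver 85920, 85921 and 85924 it was 1 peak of 5689, 5704 and 6383 bases with its summit at chr9:46269969, chr9:46269919 and chr9:46270069. In hearts 17_36584, 33016, 6839 and 6842 and in the pool the strongest peak was 1370, 1245, 843, 1248 and 1619 bases wide with folds of 56.1, 69.9, 46.1, 44.9 and 32.0. The summits of those 5 heart peaks fell at chr9:46273313 to chr9:46273408, on the high-coordinate part of the liver peak. Liver 85923 had this block as 2 peaks, one with its summit at chr9:46270144 and fold 49.2 and one of 1842 bases with its summit at chr9:46273416 and fold 43.7. The second of these coincides with the heart peak. The peak of the library labelled heart 6837 was 6701 bases wide, like the liver peaks, with its summit at chr9:46273427, like the hearts.

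In all, H3K4me3 covered 14577, 14595, 11868 and 15188 bases of the window in the 4 livers in order. It covered 1743 in heart 17_36584, 1446 in 33016, 1964 in the pool, 1186 in 6839 and 1248 in 6842, but 26293 in the library labelled heart 6837. With that library the tissues overlapped, and without it every liver was above every heart. The mean was 14057 ± 1487 bases in liver (SD, n = 4) and 5647 ± 10120 in heart (SD, n = 6), a difference of 8410 bases that did not pass (two-sided exact permutation p = 0.190, adjusted p = 0.937 over 22605 windows). Without it the heart mean was 1517 ± 331 (SD, n = 5) and the difference 12540 bases, which was not called either by this test (exact permutation p = 0.0159, adjusted p = 0.137).

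For H3K4me3 no window of the genome was called by the adjusted exact permutation test, whose smallest adjusted p was 0.149, although 2745 had an unadjusted p below 0.05. Without the library labelled heart 6837 these values were 0 windows, 0.137 and 3290 windows. With limma on log2(covered bases + 100), 390 windows, which is 1.73%, were called higher in liver, and the cluster was not among them (log2 difference 2.47, adjusted p = 0.165). Without that library limma called 1395 windows, which is 6.38%, and the cluster was among them (log2 difference 3.15, adjusted p = 6.02e-13). This limma setting was chosen after seeing the data, and it leaves out the heart that covered most of this window, which favours a call. Every liver exceeded every heart in 333 of 22605 windows, which is 1.47%, with all libraries, and in 1329 of 21870, which is 6.08%, without the library labelled heart 6837. The cluster belonged to the second set and not to the first, which follows from leaving out the heart with more covered bases here than the livers. By size, its liver mean ranked 8th of 22605 windows and its difference 3rd, or 2nd of 21870 without that library.

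In liver the breadth of the H3K4me3 at this cluster stood out more than its fold within the lists. The widest H3K4me3 peak of the cluster was among the widest 0.285, 0.384, 1.64 and 0.238% of its list in the 4 livers, whereas the strongest one was among the top 12.8, 15.9, 37.5 and 11.4% by fold. The widest peak was the block at the Apoa5 end, part of which hearts also mark, in livers 85920, 85921 and 85924. In liver 85923, where that block was split, it lay in the second strong block. In the 5 hearts other than 6837 the widest peak stood at 20.8 to 44.8% of its list by width and the strongest at 22.9 to 35.2% by fold. The library labelled heart 6837 had its widest peak among the top 0.192%, as the livers did.

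**Figure D4:**
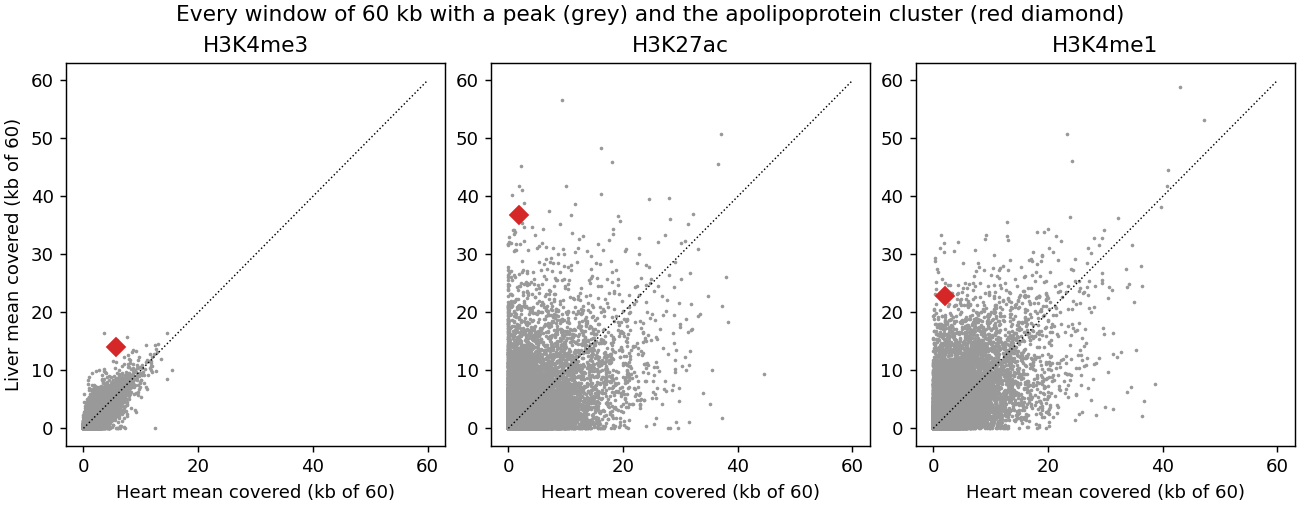
Mean covered bases per 60-kb window, in kb, in heart (horizontal) and liver (vertical) for every window of the genome with a peak of the mark, with equality dotted and the apolipoprotein cluster as a red diamond. The cluster lies near the upper edge of the liver values for H3K4me3 and H3K27ac and among the higher ones for H3K4me1, and its heart mean for H3K4me3 includes the library labelled heart 6837.

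H3K4me1 was spread over the liver cluster in many peaks of low fold, and hearts had a few. The livers had 21, 19, 20 and 30 peaks in order, covering 19559, 21054, 19917 and 30942 bases. The hearts had 6 (17_3498), 2 (17_3500), 5 (17_3501), 3 (33017) and 1 (the pool), covering 3211, 1270, 2685, 2806 and 291 bases. The tissues did not overlap, liver 85924 was the highest of the livers and the heart pool the lowest library. The list of liver 85924 was also the longest of the livers, with 113889 peaks, and the list of the pool the shortest of all H3K4me1 lists, with 20521.

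The mean was 22868 ± 5420 bases in liver (SD, n = 4) and 2053 ± 1227 in heart (SD, n = 5), a difference of 20815 bases. It was not called (two-sided exact permutation p = 0.0159, the smallest that 4 against 5 allow; adjusted p = 0.110), and no window of the genome was called for H3K4me1 by this test, while 5641 of 26829 had an unadjusted p below 0.05. With limma the cluster was called (log2 difference 3.73, adjusted p = 0.000168), 1 of 3175 windows, which is 11.8%, then called higher in liver. Every liver exceeded every heart in 3627 of the 26829 windows, which is 13.5%. The liver mean ranked 157th and the difference 30th. When each list was held to its 20521 strongest peaks, the difference was 12904 bases (adjusted exact permutation p = 0.101), and without liver 85924 it was 18124 (adjusted exact permutation p = 0.173). Without the heart pool it was 20375 (adjusted exact permutation p = 0.108).

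Library names in the labels start with do or vl, and all livers are do libraries, so the H3K4me1 lists were also compared among do libraries alone. The labels do not say what the prefix stands for, and the input of do heart 33017 is a vl library. The 2 do hearts, 33017 and the pool, covered 2806 and 291 bases, below all 4 livers (difference 21320 bases, exact permutation p = 0.133, the smallest that 4 against 2 allow). The 3 vl hearts covered 1270 to 3211 bases and were below all livers too.

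Along the window, H3K4me1 peaks were shared by at least 2 livers in 23 blocks. The strongest in livers 85921, 85923 and 85924 lay at chr9:46220644-46223049 at the Apoa1 end, with top folds of 8.57, 11.1, 13.3 and 26.9 in the 4 livers. The widest ran over chr9:46225511-46228549 and ran into the edge of the first strong H3K4me3 block. A block at chr9:46239829-46242346, with folds of 6.69, 9.94, 12.3 and 17.1, lay over the second H3K27ac domain, and no heart had an H3K4me1 peak in it. Most of the 23 blocks likewise had no heart peak. A block at chr9:46256936-46259111, with top folds of 9.40, 10.2, 7.0 and 15.4, lay in the third domain, where 1 of 5 hearts (17_3501) had a peak.

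Only the block at chr9:46273625-46274880 had a peak in all 4 livers and all 5 hearts. There the top folds were 5.72, 5.39, 4.61 and 15.7 in the livers and 9.40 (17_3498), 6.75 (17_3500), 7.91 (17_3501), 8.93 (33017) and 3.94 (the pool) in the hearts. It overlaps the high-coordinate end of the H3K4me3 peak that both tissues share at the Apoa5 end and runs past it. Another heart block, chr9:46229866-46230568, was seen in 3 of 5 hearts (17_3498, 17_3500 and 33017) with folds of 6.15 to 8.54. It covers the place of the short heart H3K4me3 and H3K27ac peaks inside the first strong H3K4me3 block of liver, and among livers only 85924 had an H3K4me1 peak there.

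**Figure D5:**
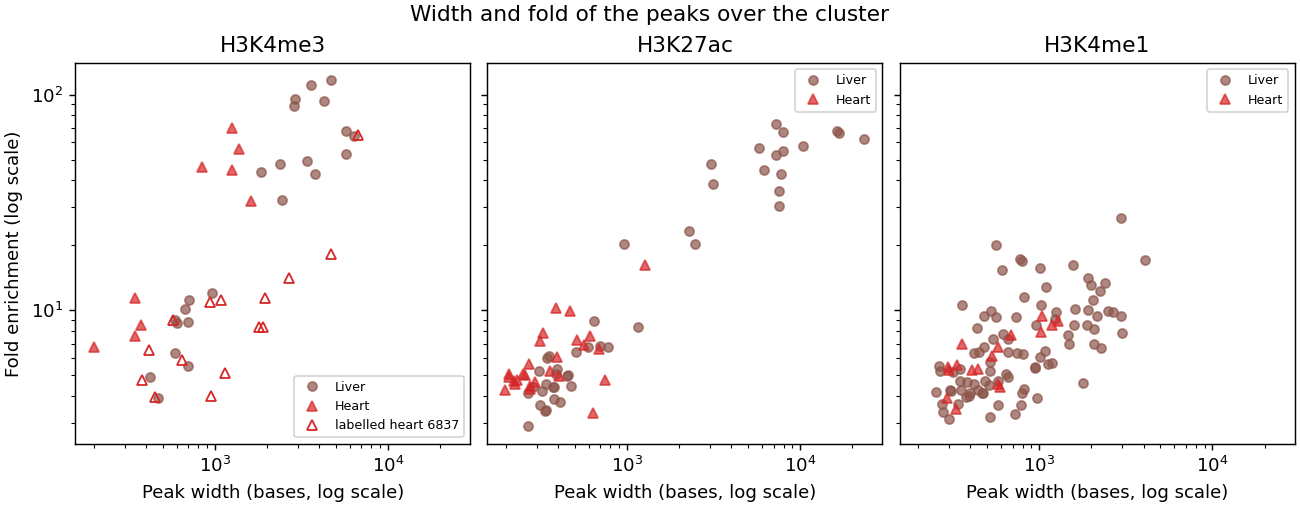
Width in bases and fold over input of every peak over the cluster, both on log scales, for liver (circles), heart (filled triangles) and the H3K4me3 library labelled heart 6837 (open triangles). Liver H3K27ac peaks reach 23466 bases, and no heart H3K27ac peak exceeds 1260 bases. In hearts other than 6837, H3K4me3 peaks at the Apoa5 end reach deposited folds like those of liver at smaller widths. Folds were not tested between tissues.

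Because each liver gave all 3 marks, their overlap could be read within an animal. H3K27ac covered 99.6, 100, 100 and 100% of the H3K4me3 bases of the cluster, against 72.4 to 78.4% over the whole genome of the same animals. H3K4me1 covered 24.1, 34.3, 15.3 and 71.4% of the H3K4me3 bases, against 40.3, 41.0, 42.6 and 52.5% over the genome. It was thus below the genome's share in 3 livers and above it in 85924, and the mean of the 4 was 36.3% ± 24.7 (SD, n = 4) or 24.6% without 85924. Of the H3K27ac bases outside H3K4me3 peaks, H3K4me1 covered 65.5, 65.1, 61.9 and 64.9%. The same share over the genome was 58.1, 63.8, 61.8 and 51.0%. These shares are given with no test, since the marks of an animal were not compared between animals of another group.

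The cluster was not marked throughout. No library of either tissue had a peak at chr9:46247317-46252845 (5529 bases), near the middle of the window, or at chr9:46262645-46266111 (3467 bases), between the third H3K27ac domain and the one at the Apoa5 end. In all, 13542 bases of the window had no peak in any library. All of them were also the bases that no liver covered, so hearts added no covered base to those of the livers. Without the H3K4me3 library labelled heart 6837, the hearts left 52508 bases of the window without a peak.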

How the data were processed

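Peak lists of 29 mouse libraries were used, each called on 1 library against 1 input library, as the deposited lists are named. MACS2 is the tool in the submitters' processing notes; its version, an aligner and read filters are not given there. GRCm38 is the build that the deposited lists name. Per peak, the authors' deposited lists give a score, a fold enrichment over input (a ratio) and −log10 p and q values (lowest −log10 q 1.3). Folds are the authors' own value per peak and serve to describe peaks and to rank them within a list. The top fold of each library also entered the screen for libraries that stand apart.

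From these, peaks were merged per library, and covered bases of each 60-kb window with a peak were compared between tissues by a two-sided exact permutation test over libraries, adjusted by Benjamini-Hochberg over all windows at 0.05. A window past 0.05 is called. Blocks are bases covered in at least 2 libraries of a tissue. Alternatives were a −log10 q of at least 4, equal numbers of peaks, summits, limma on log2(bases + 100), a window wider by 10 kb on each side, only do libraries, and each library left out. Livers and hearts came from different animals, and several hearts share inputs (5 inputs over 17 libraries). Each liver has an input library of its own number in the series. Most heart sources have none, so their lists were called against input from another animal. Whether this affects the comparison of tissues was not tested.

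The genes named are the 4 members. They, the window and the lists were chosen with earlier results of these data known. Tests at gene starts, lists of other lipoprotein genes and marker genes, genes of like pattern and promoter motifs were not run, as no mouse gene positions or sequences were used here. The member symbols matched 4 of 4 IDs. Other samples were not analysed here. The window test was run on simulated data to check its code, and the outcome is not used here. Python 3.11.15, NumPy 2.4.6, pandas 2.3.3, SciPy 1.17.1, Matplotlib 3.10.9, R 4.3.3 and limma 3.58.1 were used.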

Additional observations from a re-analysis of the deposited data

Results flagged for a closer look

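Of 24 sets of values (4 measures in each of 6 groups), 6 held a library whose gap to the nearest other one exceeded Dixon's 95% limit, which chance alone passes in about 1 of 20 sets. In H3K4me3, the library labelled heart 6837 stood apart by 26293 covered bases (gap 0.969 of the range), 15 peaks (0.929) and a widest peak of 6701 bases (0.868). The H3K27ac library of heart 6837 stood apart by its top fold of 16.2 (0.642) and its widest peak of 1260 bases (0.693). The H3K4me1 library of liver 85924 stood apart by 30942 covered bases (0.869). What sets these libraries apart was not tested.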

How the results depend on the processing

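The difference between liver and heart was positive for all 3 marks under every alternative run. H3K27ac kept its call under 11 alternatives and lost it in the 4 that leave out a liver; over all libraries left out in turn its difference ranged from 34792 to 35764 bases. H3K4me3 was not called under 15 alternatives and was called under limma without the library labelled heart 6837 (3.15 on the log2 scale), a pairing chosen after seeing the data. Of those 15, all but limma with all libraries used the exact test. That test called no window higher in liver for H3K4me3, so it could not set the cluster apart from other windows. H3K4me1 was called under limma (3.73 on the log2 scale) and not under the other 14. Those 14 used the exact test, which called no window of the genome for this mark, so they could not set the cluster apart from other windows. The number of windows called higher in liver was 4800 for H3K27ac, 2644 with summits in place of covered bases, and from 0 to 5200 with a library left out; the zeros are those without a liver, where 3 against 6 libraries allow no smaller p. Under limma it was 390 for H3K4me3, 1395 without that library, and 3175 for H3K4me1, against 0 with the exact test. Shares of overlapping marks were also recomputed at a −log10 q of at least 4 and without liver 85924, alternatives chosen after seeing the data. The mean share of H3K4me3 bases in H3K4me1 went from 36.27% to 35.64% and 24.57% in that order, so it depended on liver 85924. The share of H3K4me3 bases in H3K27ac went from 99.89% to 99.89% and 99.86%. For H3K27ac bases outside H3K4me3, the share in H3K4me1 went from 64.35% to 63.78% and 64.17%. The alternatives for gene starts were not run. No paired analysis was possible because livers and hearts came from different animals and share no number. Read depth is unknown, so an absent peak cannot be told from a shallow library.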
